A study of Mus musculus with 6 samples.

Results

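To examine the transcription factors that run the gene program of the heart muscle cell, the probes of 10 core cardiac factors were compared between hearts of hSRY-ON and hSRY-OFF mice. The members were chosen by gene symbol (Gata4, Gata6, Nkx2-5, Mef2a, Mef2c, Mef2d, Tbx5, Tbx20, Hand2 and Srf). The array held 15 probes for 9 of these 10 genes, out of 25697 probes and 18138 gene symbols in all. Mef2a had no probe under its symbol, so nothing is reported on it.

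The study arrayed hearts of male FVB mice (FVB/N in the methods) at postnatal day 6, 3 from hSRY-ON and 3 from hSRY-OFF animals, each on an Illumina BeadChip. Both groups relate to Signalox-hSRY, a transgene placed as 1 copy at the H11 locus, whose CAG promoter drives DsRed2 until Cre recombination and afterwards FLAG-tagged human SRY with EGFP. In hSRY-ON animals the recombination had been made by Cre left in the egg of a Ddx4-Cre mother, so SRY is driven in cells of the whole body and not in heart muscle alone. The hSRY-ON animals used for arrays had not inherited Ddx4-Cre itself. For hSRY-OFF the sources give more than 1 definition, namely the unrecombined transgene or littermates having Ddx4-Cre only or neither transgene, and which of them applied to the 3 control hearts is not settled here. RNA came from bulk tissue, where fewer cells of a type and less RNA per cell cannot be told apart.

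The core factors bind DNA together at the enhancers of cardiac genes. Gata4 and Gata6 are zinc finger proteins of the GATA family, Nkx2-5 is a homeodomain protein, Tbx5 and Tbx20 belong to the T-box family, Hand2 is a basic helix-loop-helix protein, and the Mef2 proteins and Srf are MADS-box factors. In the embryo they specify the heart and its chambers, and after birth several of them still maintain contractile and conduction genes.

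Levels are in normalized log2 intensity, the background-corrected brightness of a probe on a log2 scale, and each change is a log2 fold change, the hSRY-ON mean minus the hSRY-OFF mean, with its standard error (SE) from the fit. A probe was tested when it was above background (detection p-value under 0.05) on at least 3 of the 6 arrays, and it was called changed at an adjusted p under 0.05 in limma's moderated test over all 12970 tested probes. Between 12138 and 13172 probes were above background on each array. Replicate 3 of hSRY-OFF was dimmest (mean intensity 631, the others 723 to 939). Across tested probes, Pearson's r was 0.983 to 0.992 within a group and 0.940 to 0.960 between groups. Mouse Sry, by its only probe, was above background on no array, and the human transgene was not measured here. The smallest two-sided p that an exact permutation test of 3 hearts against 3 can give is 0.1, so the calls rest on the fit across all probes.

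Of the 15 probes of the core factors, 12 were tested, representing all 9 genes, and 3 were above background on no array. Nkx2-5, Tbx5 and Gata6 rose and Hand2 fell in the hSRY-ON hearts, while Gata4, Mef2c, Mef2d, Tbx20 and Srf did not pass the test. Thus 4 of 12 tested probes were called, 3 up and 1 down, or 33.3%, against 27.5% of all tested probes (13.8% up and 13.7% down). The groups did not overlap for 6 of the 12 probes, with hSRY-ON higher in 4 and lower in 2, against 45.2% of all tested probes (23.6% higher and 21.6% lower). Both shares of probes were near those of the whole array. With 1 probe a gene, the brightest tested, 4 of 9 genes were called, or 44.4% against 28.8% of all tested genes. Of all calls 50.1% were up, or 38.5% without normalization between arrays. The 12 member probes had a median log2 fold change of -0.20 and a median absolute change of 0.41, against 0.00 and 0.30 over all tested probes. Among these probes Mef2c counts 3 times and Srf 2 times. With 1 probe a gene, the median over the 9 genes was 0.36, against 0.00 over all tested genes, so its sign depends on the counting. The changes were modest in size, between -0.67 and 1.09, with SEs of 0.12 to 0.29.

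**Figure D1:**
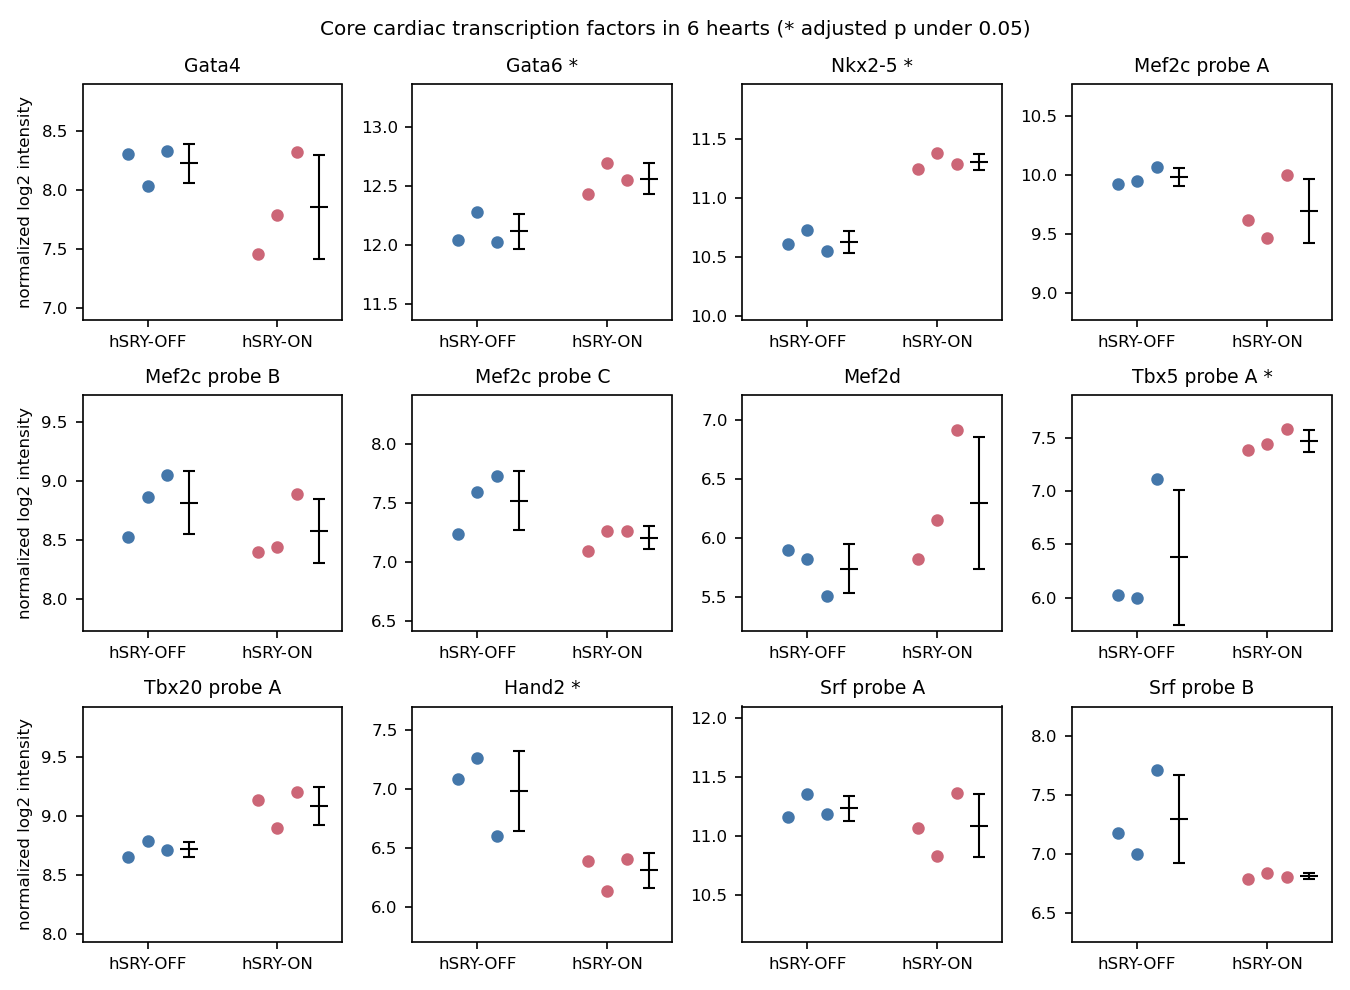
Normalized log2 intensity (vertical axis) of the 12 tested probes in the 3 hSRY-OFF (blue) and 3 hSRY-ON (red) hearts, with the mean and SD of each group in black. The axis range differs between panels, and an asterisk marks an adjusted p under 0.05. In Nkx2-5 neither group spans more than 0.18, and in Tbx5 the heart of hSRY-OFF replicate 3 lies closer to the hSRY-ON hearts than to the other controls.

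The homeodomain factor Nkx2-5, which is among the first genes switched on in cardiac progenitors, had the smallest adjusted p of the core factors. Its level was 10.61, 10.73 and 10.55 in replicates 1, 2 and 3 of hSRY-OFF, and 11.25, 11.38 and 11.29 in those of hSRY-ON. Every hSRY-ON heart lay above every hSRY-OFF heart, and the replicates of a group spanned at most 0.18. The change was 0.68 (SE 0.12, 95% interval 0.41 to 0.95, adjusted p = 0.00493, limma), or 1.599-fold. Even before normalization the intensities did not overlap, with hSRY-OFF hearts at 1245 to 2221 and hSRY-ON hearts at 2419 to 2784. Leaving out any heart kept the change between 0.63 and 0.73 and past the threshold. It missed the threshold only when the arrays were not normalized to each other (0.60, adjusted p = 0.198).

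Among the T-box factors, Tbx5 is known for patterning the atria and the conduction system. Its brighter probe was measured at 6.02, 6.0 and 7.11 in replicates 1, 2 and 3 of hSRY-OFF, and at 7.39, 7.44 and 7.58 in those of hSRY-ON. The groups did not overlap, but hSRY-OFF replicate 3 lay more than 1 unit above the other controls. The change was 1.09 (SE 0.29, 95% interval 0.42 to 1.76, adjusted p = 0.0282, limma), or 2.13-fold. It was the largest among the core factors, except that without background correction Nkx2-5 was larger (0.63). The raw intensities of this dim probe were 219, 232 and 226 in the hSRY-OFF and 284, 304 and 307 in the hSRY-ON hearts. The 3 control intensities lay close together, but their arrays differed in background. Probes not above background had a median intensity of 159, 168 and 137 in replicates 1, 2 and 3 of hSRY-OFF. The spread between the controls was seen in the background-corrected and normalized values. Without background correction the change was 0.49 (adjusted p = 0.0158), and without hSRY-OFF replicate 3 it was 1.47 (adjusted p = 0.00147). With an intensity trend in limma's variance, which lets it depend on brightness, the adjusted p was 0.0122. The call was lost without hSRY-OFF replicate 1 (0.91, adjusted p = 0.0911) or 2 (0.89, 0.0856), and without hSRY-ON replicate 1 (1.13, 0.0645), 2 (1.10, 0.0668) or 3 (1.04, 0.0756), and without a probe filter (adjusted p = 0.0522). The other probe of Tbx5 was above background on no array and says nothing of the change.

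Tbx20, which in the embryo represses Tbx2 to let the chambers form, was measured at 8.65, 8.79 and 8.72 in the hSRY-OFF and at 9.14, 8.90 and 9.21 in the hSRY-ON hearts by its only probe above background. The hSRY-ON hearts were all above the controls, yet the log2 fold change of 0.36 did not pass the test (SE 0.13, 95% interval 0.07 to 0.66, adjusted p = 0.0714, limma). It did pass without hSRY-ON replicate 2, the lowest of its group (0.45, adjusted p = 0.0484), and without background correction (0.28, adjusted p = 0.0393). The remaining 2 probes of Tbx20 were above background on no array.

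Of the GATA factors, Gata6 rose and Gata4 did not pass the test. Gata6, which is made in heart muscle and also in smooth muscle, was at 12.04, 12.28 and 12.02 in replicates 1, 2 and 3 of hSRY-OFF, and at 12.43, 12.70 and 12.55 in those of hSRY-ON. The lowest hSRY-ON heart was above the highest hSRY-OFF heart, and the change was 0.45 (SE 0.13, 95% interval 0.13 to 0.76, adjusted p = 0.0431, limma), or 1.36-fold. The raw intensities overlapped, at 3354 to 6310 in the hSRY-OFF and 5220 to 6556 among the hSRY-ON hearts. The call was lost without hSRY-OFF replicate 1 (0.41, adjusted p = 0.140) or 3 (0.40, 0.0887), without hSRY-ON replicate 1 (0.51, 0.0647), 2 (0.38, 0.114) or 3 (0.45, 0.0846), and with the arrays scaled to equal medians (0.42, 0.0522), scaled in 2 steps in the manner of the package TCC (0.44, 0.0510) or not normalized to each other (0.32, 0.592). It was also lost without a probe filter (adjusted p = 0.0539) and with the replicate number as a block in the fit (0.0563).

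Gata4, an activator of many sarcomere and natriuretic peptide genes, was at 8.31, 8.04 and 8.34 in the hSRY-OFF hearts and at 7.46, 7.79 and 8.33 in those of hSRY-ON. The hSRY-ON hearts spanned 0.87, and replicate 3 was at the level of the controls. The change was -0.37 (SE 0.22, 95% interval -0.89 to 0.15, adjusted p = 0.256, limma), an interval that includes no change as well as a decrease. Without hSRY-ON replicate 3 it was -0.60 and passed the test (adjusted p = 0.0474). The difference between the changes of Gata4 and Gata6 was not tested.

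Hand2, a basic helix-loop-helix factor of the developing right ventricle, was the only core factor that fell. Its level was 7.09, 7.26 and 6.61 in replicates 1, 2 and 3 of hSRY-OFF, and 6.39, 6.14 and 6.41 in those of hSRY-ON. The groups did not overlap, with hSRY-OFF replicate 3 nearest to the hSRY-ON hearts. The change was -0.67 (SE 0.19, 95% interval -1.11 to -0.24, adjusted p = 0.0339, limma). The probe was dim, with raw intensities of 304, 346 and 196 in the hSRY-OFF and 209, 203 and 209 in the hSRY-ON hearts, which do overlap. Without background correction the change was -0.29 (adjusted p = 0.0481), and with the intensity trend the adjusted p was 0.0345. The call was lost without hSRY-OFF replicate 1 (-0.62, adjusted p = 0.106) or 2 (-0.53, 0.0982) and without hSRY-ON replicate 1 (-0.71, 0.0716), 2 (-0.58, 0.0973) or 3 (-0.72, 0.0598), and with the arrays not normalized to each other (-0.80, 0.0555) or without a probe filter (-0.67, 0.0547). The replicate block lost it as well (adjusted p = 0.0717).

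Because Hand2 fell and a promoter of it was at hand, the 250 bases before its RefSeq start (GRCm38.p6, chr8:57320733-57320982, plus strand) are shown, with matches to the GATA motif in capitals.
Hand2: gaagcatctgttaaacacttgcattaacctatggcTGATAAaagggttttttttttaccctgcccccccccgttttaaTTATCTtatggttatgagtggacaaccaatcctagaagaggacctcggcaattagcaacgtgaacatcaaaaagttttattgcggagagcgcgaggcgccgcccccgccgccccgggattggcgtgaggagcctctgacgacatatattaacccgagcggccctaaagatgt
The GATA motif was searched on both strands as AGATAA or TGATAA, with G also allowed as the last base, and 26.5% of the 32851 promoter windows of this length hold a match. In Hand2 the matches lie 215 to 210 and 172 to 167 bases before the start, the latter on the opposite strand. Of the core factors, 7 had a RefSeq promoter in the set used, with 9 windows among them, and no other window held this motif. Gata4, Gata6 and Tbx5 had none there, so their promoters were not searched for any motif. The core motif of SRY and SOX proteins, AACAAT on either strand, was in none of the 9 windows and in 9.42% of all. The NKX2-5 element TNAAGTG was likewise in none of them and in 10.1% of all, as were the T-box motif AGGTGTGA (1.12% of all) and the MEF2 site (2.92% of all). These are matches of letters in short windows and not sites of binding.

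The MADS-box factors did not pass the test with any probe. Mef2c, which drives muscle genes and is also made in endothelial cells, had 3 probes above background on all arrays, labelled A to C from bright to dim. Probe A was at 9.93, 9.95 and 10.07 in the hSRY-OFF and at 9.62, 9.47 and 9.996 in the hSRY-ON hearts. The log2 fold changes of probes A, B and C were -0.29, -0.24 and -0.32, with adjusted p-values of 0.219, 0.383 and 0.170 (limma). All 3 estimates were below 0, with overlapping groups in each, and their 95% intervals together ran from -0.69 to 0.20. No alternative processing brought any of them past the threshold.

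Mef2d, a widely expressed relative of Mef2c, was the dimmest tested member and was above background on 5 of the 6 arrays. Its level was 5.90, 5.82 and 5.51 in the hSRY-OFF and 5.82, 6.15 and 6.91 in the hSRY-ON hearts. Replicate 3 of hSRY-ON stood highest and replicate 1 lay among the controls. The change was 0.55 (SE 0.27, 95% interval -0.08 to 1.18, adjusted p = 0.169, limma). Its value was 0.20 without background correction and between 0.25 and 0.80 when a heart was left out, without passing the test.

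Srf, the serum response factor, binds CArG boxes in the promoters of actin and other cytoskeletal genes. Its bright probe A was at 11.16, 11.36 and 11.18 in the hSRY-OFF and at 11.06, 10.83 and 11.36 in the hSRY-ON hearts, overlapping groups with a change of -0.15 (SE 0.16, 95% interval -0.52 to 0.23, adjusted p = 0.528, limma). The dim probe B was at 7.18, 6.998 and 7.71 in the hSRY-OFF and at 6.79, 6.84 and 6.81 in the hSRY-ON hearts. Its groups did not overlap, but its change of -0.48 did not pass the test either (SE 0.19, 95% interval -0.92 to -0.05, adjusted p = 0.0955, limma). The difference between the probes was not tested.

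Since the gene for Srf carries the motif that its own protein binds, the stretch of its promoter with the CArG boxes is shown, in capitals, with the bases between them in lower case (GRCm38.p6, chr17:46556215-46556244, minus strand).
Srf: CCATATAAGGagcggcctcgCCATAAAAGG
These 2 boxes lie between 82 and 53 bases before the start that RefSeq gives for this promoter. A CArG box was found in 1.47% of all promoter windows and, among the 9 windows of the core factors, in that of Srf alone.

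**Figure D2:**
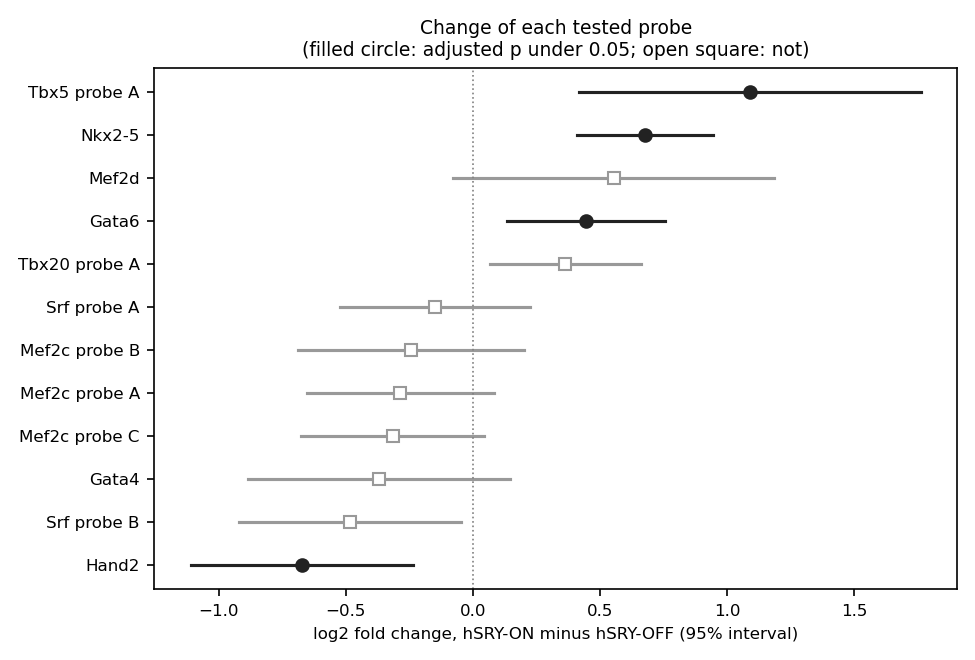
Log2 fold change (horizontal axis, hSRY-ON minus hSRY-OFF) of each tested probe with its 95% interval from limma, n = 3 hearts a group. The 4 called probes are filled circles, and the intervals of Tbx20 and of Srf probe B also leave out 0 although their adjusted p-values are above 0.05.

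By the root mean square difference of centred log2 values over the 6 hearts, the genes whose probes most resembled Tbx5 among 12969 were Tmem2 (0.153), Vps39 (0.182) and Dkk3 (0.187). Nearest to Hand2 were Nhlrc1 (0.0348), Srp9 (0.0608) and Fkhl18 (0.0631), where a smaller value means a closer match. Such likeness over 6 hearts was not tested, and the pattern of Tbx5 holds the high value of hSRY-OFF replicate 3 (7.11).

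Next, the proteins that work with the core factors were examined. Of 32 cofactors and regulators, 29 had a probe and 20 were tested with 1 probe a gene, the brightest. In this list 1 gene rose, 1 fell and 18 did not pass the test, so that 10% were called against 28.8% of all tested genes. The median log2 fold change was -0.10, against 0.00 over all tested genes. Fhl2, a LIM-only protein that binds Srf and dampens its activity, was at 13.21, 13.23 and 12.95 in the hSRY-OFF and at 10.26, 9.79 and 10.40 in the hSRY-ON hearts. Its groups lay far apart, with a change of -2.98 (SE 0.18, adjusted p = 8.01e-05, limma) that was called under every alternative. Yap1, the effector of the Hippo pathway, rose by 0.66 (SE 0.14, adjusted p = 0.0115), except that it missed the threshold without normalization between arrays (0.56, adjusted p = 0.231).

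Several direct partners of the members did not pass the test. Zfpm2, the Friend of GATA protein of the heart, was at 0.18 (adjusted p = 0.418), Myocd, the myocardin that binds Srf, at 0.30 (0.295), and the methyltransferase gene Smyd1 at -0.67 (0.0604, limma). Csrp3, the muscle LIM protein, had 3 probes, all with a change below 0. The brightest, at a mean of 14.71 in the hSRY-OFF and 14.39 in the hSRY-ON hearts, did not pass (-0.33, adjusted p = 0.130). By this probe Csrp3 was counted as not called. The others fell and passed, at -1.21 (0.0125) and -0.68 (0.0341).

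Other transcription factors of heart development were examined in the same way. Of 43 such genes, 41 had a probe and 26 were tested. Of these, 6 rose and 5 fell, or 42.3% against 28.8% of all tested genes, with a median log2 fold change of -0.12. The list was chosen with earlier results of these data known, so this share is no independent evidence. The 5 that fell included Irx3, Irx4 and Irx5 of the Iroquois family and Hey2. Irx4, which keeps ventricular muscle distinct from atrial muscle, was at 9.68, 9.49 and 9.51 in the hSRY-OFF and at 7.13, 7.41 and 8.11 in the hSRY-ON hearts, a change of -2.01 (SE 0.24, adjusted p = 0.00122, limma). Irx3, a factor of the fast conduction fibres, changed by -1.26 (adjusted p = 0.00336), Hey2, a Notch target of the ventricular wall, by -0.79 (0.00823), and Irx5 by -0.58 (0.0380). Both probes of Hey2 fell. Irx1 (-0.11, adjusted p = 0.664) and Irx2 (-0.13, 0.724) did not pass the test.

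The 4 largest increases in this list were those of Klf13 (1.09, adjusted p = 0.0343), a zinc finger partner of Gata4, Prox1 (0.91, 0.00192), a homeodomain factor of lymphatic endothelium that is also made in heart muscle, Foxp1 (0.83, 0.00807) and Foxc1 (0.82, 0.0108), both forkhead factors. Klf13 varied most, with hSRY-OFF hearts at 8.39 to 9.44 and hSRY-ON hearts at 9.63 to 10.50. Its call was lost without hSRY-OFF replicate 1 (0.84, adjusted p = 0.0964) or 2 (1.10, 0.0839) and without hSRY-ON replicate 1 (1.15, 0.0719) or 2 (0.85, 0.0920). A missing probe filter (0.0635) and the replicate block (0.0582) lost it too. The call of Irx5 was lost without hSRY-OFF replicate 1 (-0.60, 0.0918) or 2 (-0.48, 0.113) and without hSRY-ON replicate 1 (-0.55, 0.104) or 2 (-0.46, 0.104), and without background correction its change was -0.26 (0.0533). For Irx5 the same held without normalization between arrays (-0.70, 0.107), without a probe filter (0.0569) and with the replicate block (0.0891). Relatives of the members within their own families, Gata2 (0.17, adjusted p = 0.499), Mef2b (0.26, 0.380), Tbx2 (0.04, 0.857) and Tbx3 (-0.53, 0.15), did not pass the test. Hand1, Gata5, Nkx2-6 and Tbx1 were not tested, being above background on too few arrays. Of all 26 tested genes, 6 were called without hSRY-OFF replicate 1 and 7 without either hSRY-OFF replicate 2 or hSRY-ON replicate 1.

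Finally, genes known as targets of the core factors were examined. Of 34 such genes, 33 had a probe and all of these were tested. In this list 6 rose, 13 fell and 14 did not pass the test, so 57.6% were called against 28.8% of all tested genes, and the median log2 fold change was -0.25 against 0.00. The list thus had calls in both directions. It was chosen with earlier results of these data known, so its share of calls is no independent evidence.

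Among the contractile targets, Acta1, the skeletal actin that is a classical Srf target, was at 12.14, 11.61 and 11.45 in the hSRY-OFF and at 8.96, 7.93 and 8.56 in the hSRY-ON hearts, a change of -3.25 (SE 0.28, adjusted p = 0.000389, limma). Myh7, the myosin heavy chain of the fetal mouse ventricle, moved the other way, from 10.46, 10.02 and 10.08 to 12.86, 13.39 and 13.14 (2.94, SE 0.18, adjusted p = 8.25e-05). Tagln, a smooth muscle target of Srf, rose by 1.81 (SE 0.34, adjusted p = 0.00766), as did Acta2 with all of its 4 probes (brightest 0.53, adjusted p = 0.0165, the others 1.26 to 1.48). The cardiac actin gene Actc1 (-0.20, 0.445) and vinculin, Vcl (0.20, 0.436), did not pass the test.

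Among targets in excitation and signalling, Gja5, the atrial and conduction connexin that Tbx5 and Nkx2-5 activate together, was at 10.86, 10.76 and 10.88 in the hSRY-OFF and at 12.61, 11.97 and 11.89 in the hSRY-ON hearts. All of its 3 probes rose, the brightest by 1.32 (SE 0.20, adjusted p = 0.00279, limma). Gja1, the connexin of ventricular muscle, fell by 1.41 (adjusted p = 0.000953), and so did the calcium release channel gene Ryr2 by 1.09 (0.0125). Chrm2, the muscarinic receptor, rose by 0.98 (adjusted p = 0.0257), and its other probe did not pass the test. It missed the threshold without hSRY-OFF replicate 1 (0.88, 0.0850) or 2 (0.99, 0.0672) and with the replicate block (0.0604). Nppb (0.47, adjusted p = 0.329), a natriuretic peptide gene under Gata4, did not pass. Its relative Nppa is among the brightest probes, where quantile normalization sets the value by rank and gave all hSRY-ON hearts the same value, so no difference is read from it.

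Among targets in calcium handling and metabolism, Hrc, which encodes a calcium-binding protein of the sarcoplasmic reticulum, was at 13.16, 13.29 and 13.32 in the hSRY-OFF and at 10.09, 10.40 and 10.66 in the hSRY-ON hearts (-2.87, SE 0.16, adjusted p = 6.04e-05, limma). Pygm, muscle glycogen phosphorylase, changed by -1.54 (adjusted p = 0.000316), the glucose transporter gene Slc2a4 by -1.50 (0.000881), Pgam2 by -0.96 (0.00469), Ckm by -0.90 (0.00466) and Mb, myoglobin, by -0.61 (0.0125). Ppargc1a, at -0.63 (0.209), and the exchanger gene Slc8a1, at -0.25 (0.213), did not pass. Nor did the brightest probe of Atp2a2, the calcium pump gene, at -0.09 (0.590), which like Nppa is near the top of the scale, while its dimmer probe fell (-0.53, 0.0324). The Mef2c probes stood at -0.24 to -0.32 and Mef2d at 0.55, all without passing, and a link of these targets to either factor was not tested.

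**Figure D3:**
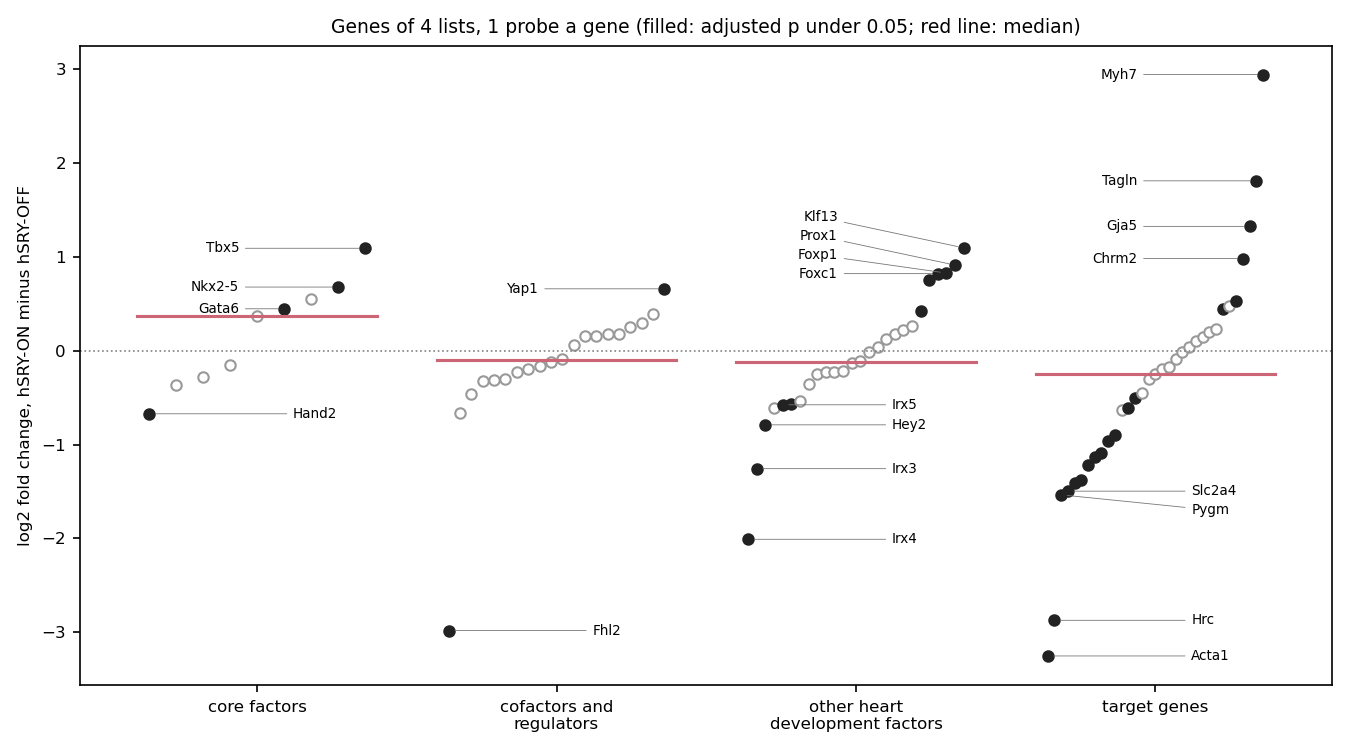
Log2 fold change (vertical axis, hSRY-ON minus hSRY-OFF) of the tested genes of 4 lists, 1 probe a gene, in rising order within each list, with the median in red. Filled points have an adjusted p under 0.05. The core factors lie between -0.67 and 1.09, while Hrc lies at -2.87, Fhl2 at -2.98, Acta1 at -3.25 and Myh7 at 2.94.

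Markers of the cell types of the heart were set beside these results, against 14.9% of all tested genes called up and 13.9% called down. Of 9 cardiomyocyte markers with a probe, 5 fell and none rose, with a median of -0.51. Tnnc1 (-0.18), Actc1 (-0.20), Ttn (-0.21) and Actn2 (0.13) did not pass. Of those that fell, Myh6, Tnni3 and Ryr2 were also counted among the targets. The log2 of the mean intensity of the markers was 14.11 to 14.20 for hSRY-OFF against 13.86 to 14.02 for hSRY-ON, and the brightest probes weigh most in it. The defining marker Myh6 was above background on all arrays, at a mean of 15.02 in the hSRY-OFF and 14.51 in the hSRY-ON hearts. Of 7 macrophage markers, 5 rose, and the same measure was 8.76 to 9.18 against 9.96 to 10.02. Of the smooth muscle and pericyte markers, 2 of 7 tested rose, Acta2 and Tagln, while the defining marker Cnn1 was above background on no array. Their measure was 12.42 to 12.61 against 12.85 to 12.97, and Acta2, the brightest, weighs most in it. Of those that did not pass, Myh11 (-0.42), Rgs5 (-0.57) and Pdgfrb (-0.43) were below 0, and Cspg4 (0.47) and Des (0.10) above it. Of the endothelial markers 1 rose and 3 fell of 7 (11.95 to 12.05 against 11.78 to 11.93), and of the fibroblast markers 1 rose of 7 (12.14 to 12.24 against 12.01 to 12.17). Ventricular markers gave 2 that fell of 5, Irx4 and Hey2, both counted above among the other factors. Myl2 (-0.02) and Myl3 (-0.03), which like Nppa are near the top of the scale, did not pass. Nor did the brightest probe of Lbh (-0.19), while its other probe fell. Atrial markers gave 1 up (Bmp10) and 1 down (Myl4) of 5. Of tested markers of the epicardium 1 of 4 rose, and of erythroid cells 1 of 5 fell.

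Markers of other tissues were measured too. The liver gene Ahsg rose by 3.07 (adjusted p = 0.00108), while Ttr was above background in the hSRY-ON hearts alone, so that it entered the test through that group and its rise is no separate evidence, and Alb and Fgb were above background on no array. Of the skeletal muscle markers 2 fell, and Actn3, which was higher in the hSRY-ON hearts, likewise entered through that group alone. Of the thymocyte markers 2 were tested and none passed. Of the lung epithelium markers only Sftpb was tested, and it did not pass (0.67, adjusted p = 0.0930). The lung marker Scgb1a1 stood at 13.74 in hSRY-ON replicate 1, against 4.67 and 4.80 in the other hSRY-ON hearts and 4.53, 6.52 and 4.70 in those of hSRY-OFF. The brown fat markers went both ways. Adipoq and Ucp1 rose, with Ucp1 at 4.64, 5.03 and 8.88 in the hSRY-OFF and 10.81, 8.80 and 9.94 in the hSRY-ON hearts, so that hSRY-OFF replicate 3 stood apart from the other controls. Ucp1 was above background in 1 hSRY-OFF and 3 hSRY-ON hearts, so it too entered the test through the hSRY-ON group. Cidea was lower in all hSRY-ON hearts without passing (-1.05, adjusted p = 0.0691, limma). Fabp4, above background on 2 hSRY-OFF arrays alone, and Elovl3, on none, were not tested. Nkx2-5 was called without hSRY-ON replicate 1 (0.70, adjusted p = 0.0175, limma) and without hSRY-OFF replicate 3 (0.63, 0.0132). Without hSRY-ON replicate 1 the calls of Tbx5, Gata6 and Hand2 were lost, and without hSRY-OFF replicate 3 that of Gata6, as given above. Without hSRY-ON replicate 1 the calls numbered 2 among cofactors, 7 among other factors and 15 among targets. The part of these cell types and tissues in the changes of Nkx2-5, Tbx5, Gata6 and Hand2 was not tested.

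All 12 tested probes of the core factors kept their direction under each of the 16 alternatives, or 15 for Mef2d. Nkx2-5 was called under 15 of the 16, Tbx5 under 10, Hand2 under 8 and Gata6 under 6. Of the 8 probes not called, 6 stayed so under every alternative.

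**Figure D4:**
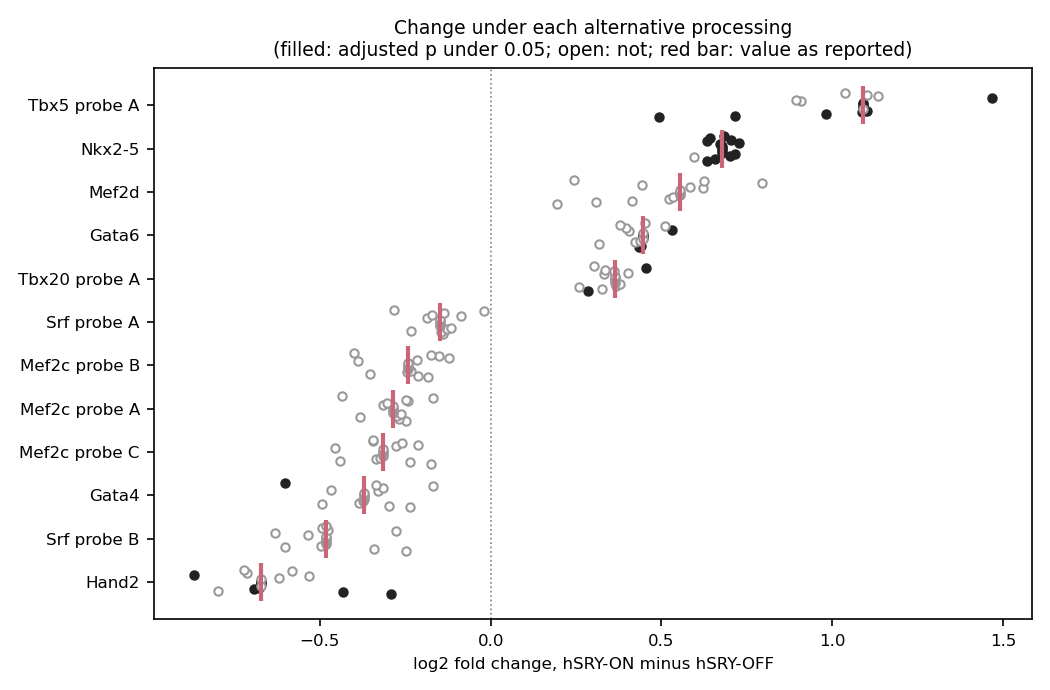
Log2 fold change (horizontal axis, hSRY-ON minus hSRY-OFF) of each tested probe of the core factors under each alternative processing, filled where its adjusted p was under 0.05, with the reported value as a red bar. No point crosses 0, and the filled points of Nkx2-5 stay between 0.63 and 0.73.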

How the data were processed

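Total RNA of 3 hSRY-ON and 3 hSRY-OFF hearts was hybridized to MouseRef-8 v2.0 BeadChip arrays. The deposited table gives raw bead intensity, without normalization or background subtraction. Beside each intensity the authors deposited a detection p-value, which sets the probe against control beads without a target. The bead summary software is not given in the sources used here. Groups were taken from the labels.

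With limma 3.58.1 in R 4.3.3, the background was corrected by the normal-exponential model of neqc (offset 16), arrays were quantile normalized and log2 was taken. Probes detected (p under 0.05) on at least 3 of 6 arrays were fitted with lmFit and eBayes, with group as the only term, with Benjamini-Hochberg adjustment across every probe tested. The authors' methods name the package TCC, which was not run, and a 2-step scaling in its manner was tried. Fold changes of dim probes are shrunk by the offset. The steps were tested on simulated data. Where the simulated background was noisy, the fit without an intensity trend in eBayes, as used here, gave more false calls among dim probes than the fit with it. Such a trend was 1 of the alternatives, beside other background, normalization and filter settings, a replicate block and leaving out each heart.

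The members and lists were chosen with earlier results of these data known, so their shares of calls are no independent evidence. Named are all members, the called genes with the 4 largest increases and decreases in each list, and, for the member probes with the largest called increase and decrease, the 3 nearest genes. Others were named after their values were seen. Kdm6a and Xirp1 were matched by older symbols. Sequences are from RefSeq (GRCm38.p6). Figures were drawn with matplotlib 3.10.9. The arrays' number limits the precision, and the hearts of a group are biological replicates per the methods. The slide of each array was not known here.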

Additional observations from a re-analysis of the deposited data

How the results depend on the processing

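The alternatives concerned background, normalization, probe filter, moderation and replicates. Without normalization between arrays, where the median of all tested probes shifted by -0.12, 1897 probes were called (38.5% up, against 50.1%), with 1 member probe (Tbx5), 1 cofactor gene and 5 other factor genes. Without a probe filter 1 member probe was called (Nkx2-5). An intensity trend in eBayes gave 4 cofactor genes, and the same 4 member genes. Leaving out 1 heart at a time, the calls ranged from 2206 (without hSRY-OFF replicate 1; 2255 without hSRY-ON replicate 1) to 3669 probes in all, from 1 (Nkx2-5, without either of these hearts) to 3 member probes, from 2 to 3 cofactor genes, from 6 to 11 other factor genes and from 14 to 19 target genes. Replicates that shared a number did not deviate together (correlations of -0.02, 0.04 and -0.07), so the numbers were not taken as pairs. With the replicate block 2 member probes were called (Nkx2-5 and Tbx5) and 2842 in all. No direction was reversed for any member or named gene. Mef2d could not be tested when detection on all 6 arrays was required, and a block for the slide could not be fitted. Dim probes, those of Tbx5, Hand2 and Mef2d, limit the size that can be given to their changes.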
